A study of Mus musculus with 8 samples.

Results

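The glucocorticoid receptor gene *Nr3c1* and 9 genes known to respond to the receptor were examined in the cerebellum of *Atm*-WT and *Atm*-KO mice. The 9 responsive genes were *Fkbp5*, *Tsc22d3*, *Sgk1*, *Zbtb16*, *Plin4*, *Pdk4*, *Sult1a1*, *Hif3a* and *Errfi1*. These 10 genes were taken by name from the 56691 genes of the count table, and all 10 were among the 22423 genes that passed the filter on low counts. They were selected on their differences between genotypes in these same libraries. The difference of each of the 10 genes between genotypes is therefore given as a description, without a test.

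The glucocorticoid receptor is a hormone-activated transcription factor that binds corticosterone, the main adrenal glucocorticoid of mice. Without hormone it is held in the cytoplasm by HSP90, HSP70 and co-chaperones of the FKBP family. With hormone it enters the nucleus and binds glucocorticoid response elements, pairs of inverted hexamers near the genes it induces. Corticosterone rises and falls with the time of day and with stress, and transcripts such as *Fkbp5*, *Sgk1* and *Tsc22d3* follow it in brain, muscle, fat and liver.

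Bulk RNA sequencing was performed on the cerebella of 4 *Atm*-WT mice (ATM +/+, labelled 2M, 7M, 13M and 32M) and 4 *Atm*-KO mice (ATM -/-, labelled 1M, 7F, 11M and 12M), with 1 library per mouse. All were 6 months old. By the methods of the study, both genotypes came from crosses within the B6;129S4-Atmtm1Bal/J line, the *Atm*-WT mice being littermates, so every cell of an *Atm*-KO mouse carries the targeted allele and the mice share a mixed genetic background. The same methods describe anesthesia with avertin and perfusion with chilled saline before dissection for all mice. The letter F marks only mouse 7F. No treatment is named for these mice, and neither the hour at which tissue was taken nor a plasma corticosterone level is given in the sources used here.

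Libraries held 65967130 to 88030300 counts. Levels are given as CPM, counts divided by library size in units of 1e6 counts after scaling by TMM factors. *Atm* itself lay between 59.0 and 80.0 CPM in *Atm*-WT mice and between 41.1 and 51.1 CPM in *Atm*-KO mice. Over all genes tested, 4 passed an adjusted p of 0.05 in the quasi-likelihood test of edgeR (0.0178%, with 0.00892% lower in *Atm*-KO mice), whereas DESeq2's Wald test called 1552 of 20724 (7.49%). Granule cell markers were high in every library, with 4925 to 7023 CPM summed over 6 genes, and 5 forebrain markers together reached at most 7.32 CPM. In bulk tissue, fewer cells of a type and less RNA per cell cannot be told apart.

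Sequence near the start of each gene was searched for the letters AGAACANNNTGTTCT, the full palindromic response element, which reads the same on both strands. The window ran from 5000 bases before to 1000 bases after the start of the canonical transcript (GENCODE vM39 on GRCm39). Among 22235 genes with such a window, 11 held every one of the 12 fixed letters (0.049%), 3.92% held a match with at most 1 mismatch, and 44.2% with at most 2. Among the 10 genes, 1 held an exact match and 6 (60%) a match with at most 2 mismatches. Among 25 other genes described as glucocorticoid-induced, 4 (16%) held a match with at most 1 mismatch and 12 (48%) with at most 2. Of 25 genes of receptor partners 14 (56%) held a match with at most 2 mismatches, and of 14 clock genes 3 (21.4%). The exact match belonged to *Sgk1*, and *Fkbp5*, *Tsc22d3*, *Pdk4*, *Sult1a1* and *Errfi1* each had a best match with 2 mismatches. The *Sgk1* window is shown as the exact match, that of *Fkbp5* as the gene with the lowest fold change among the 10, and those of 4 other induced genes as the matches of that list within 1 mismatch. Capitals mark the 15 letters of the element, spacer included, with 5 flanking bases on each side, written 5′ to 3′ on the strand of the gene.
Sgk1: cggaaAGAACAGAATGTTCTcggag
Fkbp5: actgaAGAACTGACTGTTCCccaca
Per1: ccaagAGAACACGATGTTCCctagt
Lcn2: ggctcAGAACAGGGTGTCCTgttct
Arl4d: gcttgAGAGCAACCTGTTCTcactg
Glul: gtggaGGAACAGGCTGTTCTtttaa
The *Sgk1* letters lay at chr10:21869595-21869619 (plus strand), 958 bases before the start, in an intron of longer *Sgk1* transcripts. Those of *Fkbp5* lay at chr17:28707305-28707329 (minus strand), 2165 bases before the start and likewise in an intron of the gene. Those of *Per1* lay at chr11:68987897-68987921 (plus strand) in an intron of *Per1*, and were one of 2 equally good matches. Those of *Lcn2* (chr2:32278283-32278307, minus strand) and *Arl4d* (chr11:101553056-101553080, plus strand) lay outside any annotated gene. Those of *Glul* (chr1:153772859-153772883, plus strand) lay in an exon of the neighbouring *Teddm2*. The best matches of *Hif3a*, *Nr3c1*, *Plin4* and *Zbtb16* had 3 mismatches. A match describes letters in this window and is not evidence of binding in these cerebella.

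*Nr3c1* (ENSMUSG00000024431, chromosome 18) encodes the receptor itself. Its level was 220 CPM in *Atm*-WT mouse 2M, 256 in 7M, 223 in 13M and 228 in 32M. In *Atm*-KO mice it was 216 CPM in 1M, 229 in 7F, 237 in 11M and 236 in 12M. The genotypes overlapped, with means of 232 ± 16.2 and 229 ± 9.86 CPM (SD, n = 4 per genotype), and the log2 fold change of *Atm*-KO over *Atm*-WT was −0.01 with a standard error of 0.066. The highest mouse exceeded the lowest by 1.16 times among *Atm*-WT and 1.1 times among *Atm*-KO mice. The receptor transcript thus spanned a narrower range over the 8 cerebella than each of the 9 genes that respond to it.

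All 9 responsive genes had a log2 fold change below 0, from −0.47 (*Errfi1* and *Sult1a1*) to −1.32 (*Fkbp5*), and their median was −0.92. Over all genes tested 53.1% had a log2 fold change below 0 and the median was −0.02. Among the 11373 genes with a mean of at least 5.76 CPM, the level of the lowest of the 10 genes, the share was 64.9% and the median −0.06. In 3 of the 9 (*Sgk1*, *Pdk4* and *Errfi1*) every *Atm*-KO mouse lay below every *Atm*-WT mouse. This pattern was held by 5.12% of all genes tested and by 8.06% of those at or above 5.76 CPM. The other 6 overlapped between genotypes. Because the genes were chosen with this contrast known, nothing is read from these counts.

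**Figure D1:**
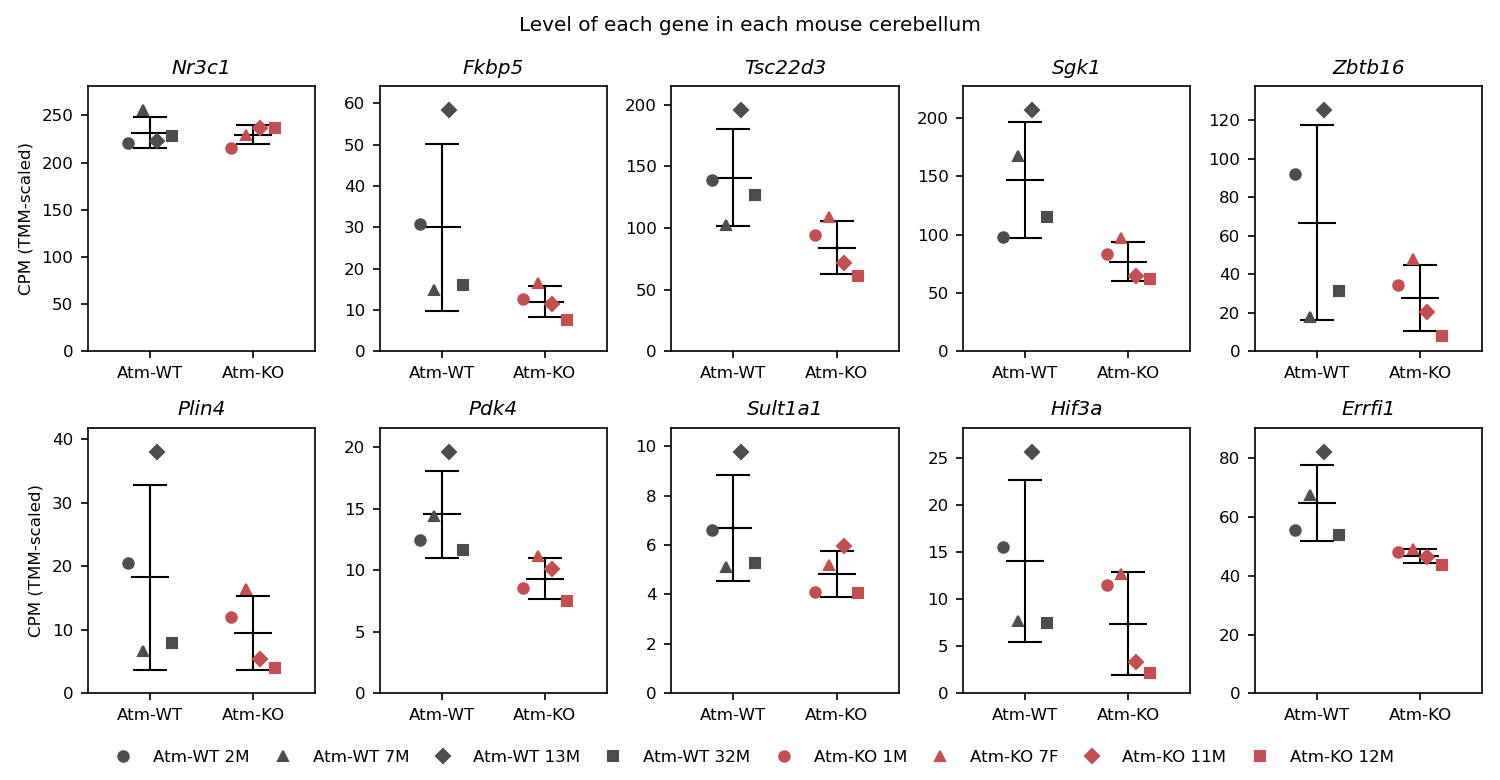
Level of each of the 10 genes in each mouse, in CPM scaled by TMM factors, with a symbol per mouse and bars for the mean and SD of the 4 mice of a genotype; each vertical axis starts at 0. *Atm*-WT mouse 13M is highest and *Atm*-KO mouse 12M lowest of all 8 in each of the 9 responsive genes, whereas *Nr3c1* lies between 216 and 256 CPM throughout.

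*Fkbp5* (ENSMUSG00000024222, chr17:28618058-28737521) encodes FKBP51, the HSP90 co-chaperone that lowers the affinity of the receptor for hormone and so closes a short feedback loop. Its level was 30.9 CPM in *Atm*-WT mouse 2M, 14.8 in 7M, 58.4 in 13M and 16.1 in 32M, and 12.7 CPM in *Atm*-KO mouse 1M, 16.5 in 7F, 11.5 in 11M and 7.55 in 12M. A pair of *Atm*-WT mice, 7M and 32M, lay within the range of the *Atm*-KO mice, while 13M stood far above the next mouse. The means were 30.0 ± 20.3 and 12.1 ± 3.68 CPM, a log2 fold change of −1.32 (SE 0.391) that became −0.75 when 13M was left out.

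*Tsc22d3* (ENSMUSG00000031431, chrX:139440091-139501408) encodes GILZ, a leucine zipper protein through which glucocorticoids restrain NF-κB and AP-1. It was at 139, 103, 196 and 127 CPM in *Atm*-WT mice 2M, 7M, 13M and 32M, and at 94.2, 109, 71.9 and 61.2 CPM in *Atm*-KO mice 1M, 7F, 11M and 12M. Only *Atm*-KO mouse 7F reached into the *Atm*-WT range, and it did so above *Atm*-WT mouse 7M alone. The log2 fold change was −0.75 (SE 0.203).

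*Sgk1* (ENSMUSG00000019970, chr10:21758083-21875802) encodes a kinase that raises the surface level of ion channels and transporters, and its window held the exact element shown above. It was at 97.9, 167, 207 and 115 CPM in *Atm*-WT mice 2M, 7M, 13M and 32M, and at 83.8, 97.3, 64.5 and 61.9 CPM in *Atm*-KO mice 1M, 7F, 11M and 12M. The genotypes did not overlap, although *Atm*-WT 2M and *Atm*-KO 7F were nearly equal. The log2 fold change was −0.93 (SE 0.218), so that *Atm*-KO cerebella held 52.4% of the *Atm*-WT level.

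*Zbtb16* (ENSMUSG00000066687, chr9:48563141-48748664) encodes the zinc finger repressor PLZF, and it varied more than the other 9 genes among *Atm*-WT mice. It was at 92.3, 17.99, 125 and 31.5 CPM in *Atm*-WT mice 2M, 7M, 13M and 32M, and at 34.2, 47.9, 20.5 and 8.14 CPM in *Atm*-KO mice 1M, 7F, 11M and 12M. *Atm*-WT mice 7M and 32M were below *Atm*-KO mouse 7F, and the highest mouse of each genotype exceeded the lowest by 6.96 and 5.89 times. The log2 fold change was −1.27 with a standard error of 0.590, and it was −0.75 without *Atm*-WT mouse 13M. *Zbtb16* lies 4.6 Mb from *Atm* on chromosome 9.

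*Plin4* (ENSMUSG00000002831, chr17:56406617-56416931) encodes a perilipin that coats lipid droplets, and *Hif3a* (ENSMUSG00000004328, chr7:16764918-16796352) a subunit of hypoxia-inducible factor. *Plin4* was at 20.5, 6.65, 38.0 and 7.93 CPM in *Atm*-WT mice 2M, 7M, 13M and 32M, and at 11.96, 16.45, 5.43 and 4.06 CPM in *Atm*-KO mice 1M, 7F, 11M and 12M. *Hif3a* was at 15.6, 7.67, 25.6 and 7.44 CPM in the same *Atm*-WT mice and at 11.5, 12.7, 3.31 and 2.12 CPM in the same *Atm*-KO mice. In both genes *Atm*-WT mice 2M and 13M were high and 7M and 32M were low, and *Atm*-KO mice 1M and 7F exceeded the low *Atm*-WT pair. Their log2 fold changes were −0.95 (SE 0.549) and −0.92 (SE 0.547), and without *Atm*-WT mouse 13M they were −0.29 and −0.45. Exons of *Plin4* share 3124 bases (39.1%) with *Hdgfl2* on the opposite strand. Whether counting used strand is not given, so reads of the 2 genes may not be separated. *Hdgfl2* was at 30.9 CPM on average, had a log2 fold change of 0.11 and varied by 1.45 times among *Atm*-WT mice, and the part of shared reads was not tested.

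*Pdk4* (ENSMUSG00000019577, chr6:5483097-5496339) encodes the kinase that switches off pyruvate dehydrogenase in fasting, and *Errfi1* (ENSMUSG00000028967, chr4:150938376-150955402) the EGF receptor inhibitor MIG6. *Pdk4* was at 12.5, 14.4, 19.6 and 11.6 CPM in *Atm*-WT mice 2M, 7M, 13M and 32M, and at 8.56, 11.2, 10.1 and 7.47 CPM in *Atm*-KO mice 1M, 7F, 11M and 12M. *Errfi1* was at 55.5, 67.4, 82.1 and 54.0 CPM in the same *Atm*-WT mice and at 48.1, 49.0, 46.4 and 43.6 CPM in the same *Atm*-KO mice. Neither gene overlapped between genotypes. Their log2 fold changes were −0.64 (SE 0.175) and −0.47 (SE 0.119), the smallest standard errors among the 9. The 4 *Atm*-KO mice were closest together in *Errfi1*, the highest exceeding the lowest by 1.13 times.

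*Sult1a1* (ENSMUSG00000030711, chr7:126271299-126275615) encodes a cytosolic sulfotransferase of phenols and was the lowest of the 10 genes in CPM. It was at 6.62, 5.10, 9.76 and 5.27 CPM in *Atm*-WT mice 2M, 7M, 13M and 32M, and at 4.10, 5.202, 5.97 and 4.06 CPM in *Atm*-KO mice 1M, 7F, 11M and 12M. *Atm*-KO mouse 11M exceeded a pair of *Atm*-WT mice, and the log2 fold change was −0.47 (SE 0.219), or −0.21 without *Atm*-WT mouse 13M. Exons of *Sult1a1* share 460 bases (15.3%) with *Sgf29* on the opposite strand, so that here too reads may not be separated. *Sgf29* was the more abundant of the pair, at 9.02 against 5.76 CPM on average, with a log2 fold change of 0.13, and the part of shared reads was not tested.

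The 9 responsive genes shared their highest and lowest mouse, although the labels distinguish no mice within a genotype but for the letter F. *Atm*-WT mouse 13M was the highest of all 8 in 9 of 9 genes and *Atm*-KO mouse 12M the lowest of all 8 in 9 of 9. The second *Atm*-WT mouse was 2M in 6 genes (*Fkbp5*, *Tsc22d3*, *Zbtb16*, *Plin4*, *Sult1a1* and *Hif3a*) and 7M in the other 3 (*Sgk1*, *Pdk4* and *Errfi1*). The lowest *Atm*-WT mouse was 7M in 5 genes, 32M in 3 and 2M in 1 (*Sgk1*), so the order of these mice differed between genes. Among *Atm*-KO mice, 7F was highest in 8 of 9, and 1M came next in 7. The median level over the 9 genes, relative to the *Atm*-WT mean on the log2 scale, was 0.59 in *Atm*-WT mouse 13M, 0.04 in 2M, −0.29 in 32M and −0.42 in 7M. In *Atm*-KO mice it was −0.34 in 7F, −0.56 in 1M, −1.12 in 11M and −1.18 in 12M. *Atm*-KO mouse 7F thus lay between *Atm*-WT mice 32M and 7M, while 1M, 11M and 12M lay below every *Atm*-WT mouse. The libraries of 13M and 12M were also those with the most and the fewest counts (88030300 and 65967130), and the part of depth was not tested. The mitochondrial share of counts was 0.903% to 1.20% in *Atm*-WT libraries, with 13M at 0.909%, and 0.565% to 0.952% in *Atm*-KO libraries, where 12M was lowest and 7F highest. A surrogate variable fitted over all genes set 12M (−0.763) and *Atm*-WT mouse 32M (0.566) farthest apart, and with it in the fit the median log2 fold change of the 9 genes was −0.77. The part of the mitochondrial share was not tested. The genes share these libraries, so their common order is not 9 separate observations. How often 13M was highest or 12M lowest over all genes tested is not given here.

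The median log2 fold change of the 9 genes, −0.92 over all mice, was −0.45 when *Atm*-WT mouse 13M was left out and −0.62 when *Atm*-KO mouse 12M was left out. Leaving out both, a comparison chosen after seeing the data, gave −0.38, with all 9 still below 0. The values then ranged from −0.06 in *Plin4* to −0.64 in *Sgk1*, and included −0.61 in *Fkbp5*, −0.47 in *Zbtb16* and −0.16 in *Hif3a* and *Sult1a1*. *Errfi1* (−0.31), *Pdk4* (−0.38) and *Tsc22d3* (−0.43) kept more of their difference than *Plin4* and *Hif3a*.

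**Figure D2:**
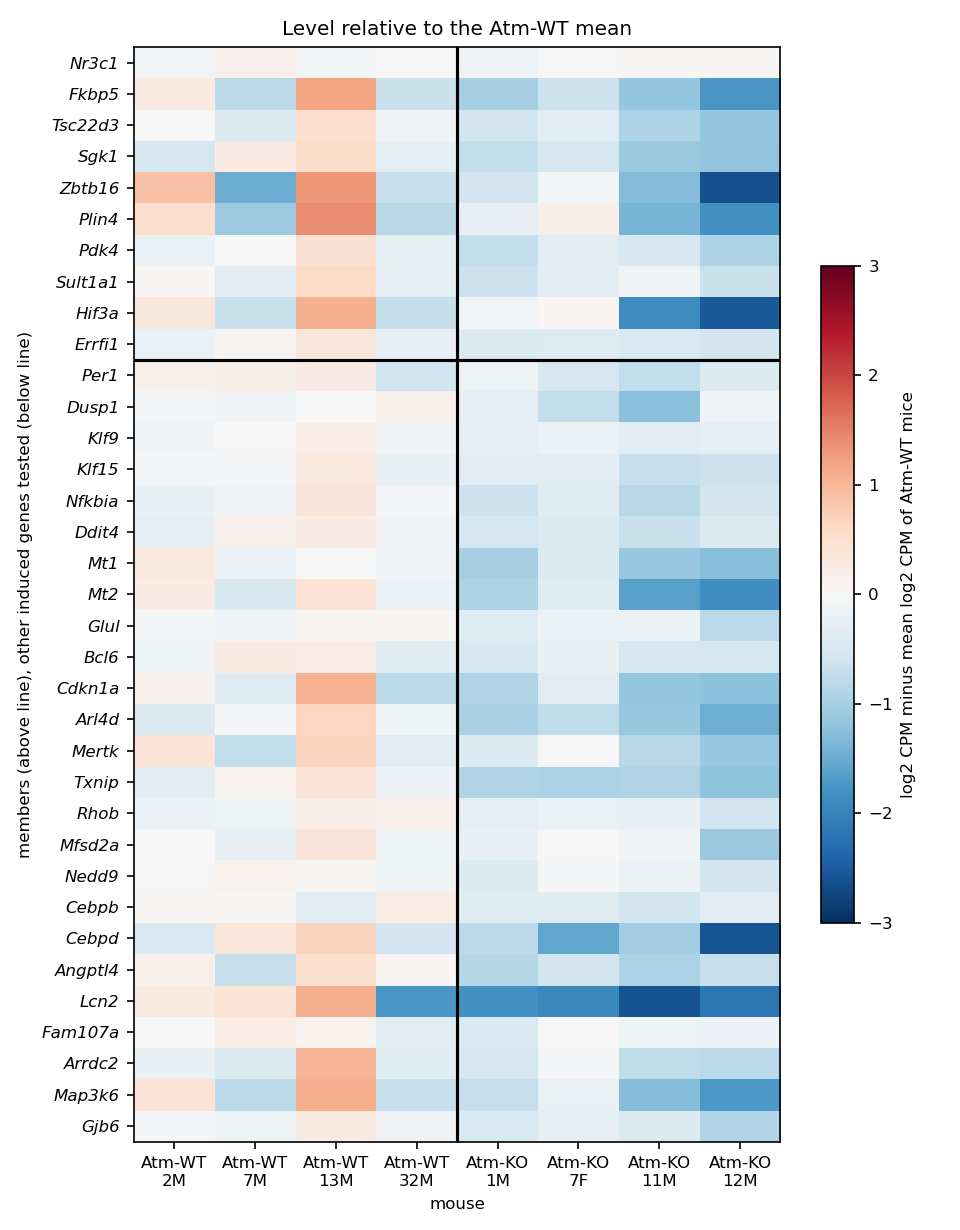
Level of the 10 genes (above the line) and of 25 other glucocorticoid-induced genes tested (below it) in each mouse, as log2 CPM minus the mean log2 CPM of the 4 *Atm*-WT mice, red above and blue below that mean. The column of *Atm*-WT mouse 13M is red in all 9 responsive genes and that of *Atm*-KO mouse 12M blue in all 9, while the *Nr3c1* row is pale in every mouse.

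Within a genotype, 6 of the 9 responsive genes varied more than nearly all genes of like level. The standard deviation of log2 CPM between mice of a genotype, pooled over genotypes, was 1.22 in *Zbtb16*, 1.09 in *Hif3a*, 1.07 in *Plin4*, 0.73 in *Fkbp5*, 0.41 in *Sgk1* and 0.38 in *Tsc22d3*. Each exceeded 98.9% or more of the 1000 genes nearest in mean level, whose medians were 0.10 to 0.19. *Errfi1* (0.20), *Pdk4* (0.30) and *Sult1a1* (0.36) exceeded 91.1%, 88.2% and 80.1% of theirs. *Nr3c1*, at 0.08, exceeded 26.4% and was thus less variable than most genes of its level. In *Zbtb16*, *Hif3a* and *Plin4* the spread was wide in both genotypes, whereas in *Fkbp5* it was 0.92 among *Atm*-WT and 0.47 among *Atm*-KO mice. These shares are a description, since the genes were not chosen blind to their values.

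**Figure D3:**
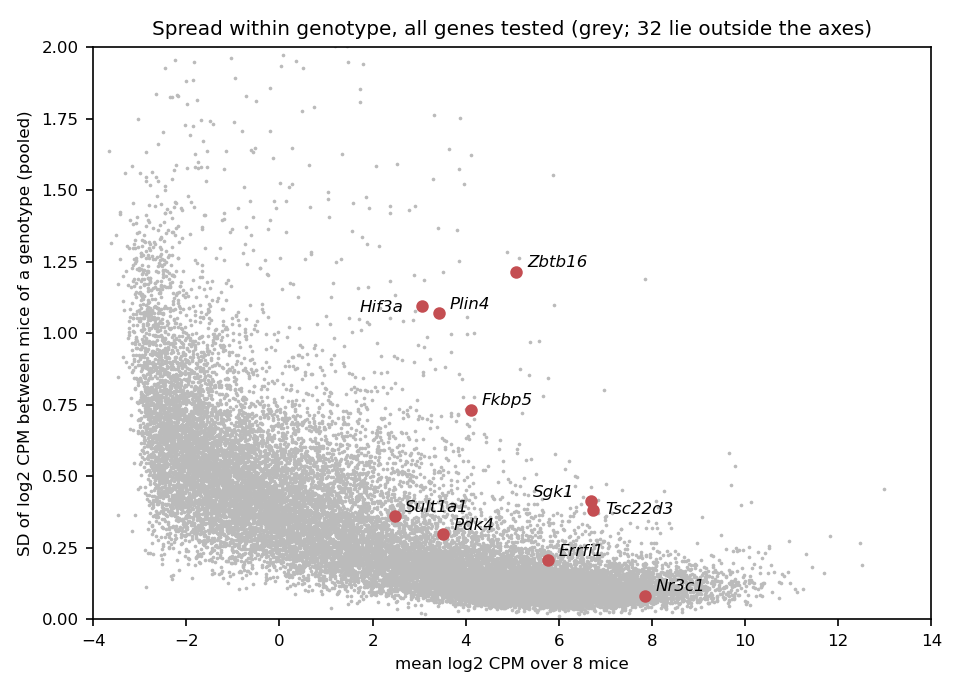
Standard deviation of log2 CPM between mice of a genotype, pooled over both genotypes, against mean log2 CPM over the 8 mice, for all 22423 genes tested (grey, 32 outside the axes) and the 10 genes (red). *Zbtb16* (1.22), *Hif3a* (1.09) and *Plin4* (1.07) stand far above the band of genes of like level, and *Nr3c1* (0.08) lies inside it.

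Per kilobase of annotated exon, *Nr3c1* was the most abundant of the 10 in both genotypes, at 29.4 ± 2.05 CPM per kb for *Atm*-WT and 29.1 ± 1.25 for *Atm*-KO (SD, n = 4). In *Atm*-WT mice *Sgk1* (24.4 ± 8.28) and *Tsc22d3* (22.8 ± 6.37) followed, within their spread of each other, and *Sgk1* was also within its spread of *Nr3c1*. *Errfi1* (10.9 ± 2.20) and *Zbtb16* (7.11 ± 5.39) came next and overlapped. *Pdk4* (3.83 ± 0.94), *Fkbp5* (2.71 ± 1.83), *Plin4* (2.29 ± 1.82), *Sult1a1* (2.23 ± 0.719) and *Hif3a* (1.84 ± 1.12) formed a low group whose neighbours did not differ beyond their spread. In *Atm*-KO mice *Tsc22d3* (13.6 ± 3.46) and *Sgk1* (12.8 ± 2.78 CPM per kb) were at less than the *Nr3c1* level by more than their spread, and *Fkbp5* (1.09 ± 0.332) came below *Sult1a1* (1.61 ± 0.309).

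The 25 other genes described as glucocorticoid-induced that were tested (of 26 listed, *Slc10a6* being too low) all had log2 fold changes below 0. Their median was −0.54, and 53.1% of all genes tested were below 0. This list, too, was written with earlier results of these libraries known. Its counts are therefore a description and not separate support for the pattern of the 9 responsive genes. With edgeR, 0 of the 25 passed an adjusted p of 0.05 (Benjamini-Hochberg, all 22423 genes). At an unadjusted p under 0.05, 21 of the 25 were lower and 0 higher, where 20.2% of all genes tested were past that level and 8.48% were past it and lower. In 13 of the 25 every *Atm*-KO mouse lay below every *Atm*-WT mouse, against 5.12% of all genes and 8.06% of those at or above 5.76 CPM. DESeq2 called 13 of them lower at an adjusted p of 0.05 (2.44% of its genes), and edgeR without the filter on low counts called 12 (0.479%). With edgeR at an adjusted p of 0.1, 7 passed (0.647% of genes being lower at that level). Without *Atm*-WT mouse 13M and *Atm*-KO mouse 12M, 24 of the 25 were below 0 (52.2% of all genes), with a median of −0.41, and 1 passed and was lower (0.115% of all genes).

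*Txnip*, which encodes an inhibitor of glucose uptake, came closest to the threshold. It was at 36.01, 48.4, 60.1 and 40.0 CPM in *Atm*-WT mice 2M, 7M, 13M and 32M, and at 24.2, 23.3, 24.0 and 19.7 CPM in *Atm*-KO mice 1M, 7F, 11M and 12M. The genotypes were well apart, with a log2 fold change of −1.02 (SE 0.143) and an adjusted p of 0.0513 in edgeR. Among *Atm*-KO mice the highest level of *Txnip* exceeded the lowest by 1.23 times. *Txnip* passed in edgeR without 13M (−0.85), without 32M (−1.08) and without 13M and 12M together (−0.81). It also passed without the filter on low counts (−1.02) and by DESeq2 (adjusted p = 4.17e-08). *Mt1*, a metal-binding metallothionein, was at 34.8 to 48.6 CPM in *Atm*-WT against 16.1 to 29.6 CPM in *Atm*-KO mice (log2 fold change −0.93, adjusted p = 0.0931 in edgeR). *Arl4d*, a small GTPase with a window close to the element, was at 6.43 to 13.5 CPM and 3.15 to 5.15 CPM (−1.12, adjusted p = 0.0931). Neither overlapped between genotypes.

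Further genes of this list were named after their values were seen, for their role or for the sequences above. *Cdkn1a*, the cell cycle inhibitor p21 and also a target of p53, was at 24.0, 16.8, 45.1 and 12.5 CPM in *Atm*-WT mice 2M, 7M, 13M and 32M, and at 11.7, 17.5, 9.74 and 9.33 CPM in *Atm*-KO mice 1M, 7F, 11M and 12M. As in *Fkbp5*, 13M stood far above the rest, 2M came next and 7F lay above a pair of *Atm*-WT mice. Its log2 fold change was −1.03 (SE 0.344, adjusted p = 0.146 in edgeR), or −0.54 without 13M. *Mt2* had a log2 fold change of −1.11 (adjusted p = 0.105), and *Map3k6*, a stress-activated kinase, one of −1.08 (adjusted p = 0.201), or −0.59 without 13M. *Lcn2*, which encodes the iron carrier lipocalin, was low throughout, with 0.210 to 1.61 CPM in *Atm*-WT against 0.103 to 0.196 CPM in *Atm*-KO libraries. Its log2 fold change was −2.57 (SE 0.533, adjusted p = 0.0931).

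*Per1*, at once a clock gene and a direct target of the receptor, was at 85.5, 87.5, 91.9 and 51.0 CPM in *Atm*-WT mice and 69.4, 54.2, 46.4 and 58.2 CPM in *Atm*-KO mice, in the order of mice above. *Atm*-WT mouse 32M lay among the *Atm*-KO mice, and the log2 fold change was −0.47 (adjusted p = 0.168 in edgeR). *Klf9*, a Krüppel-like factor of the same kind of control, was more even, at 349 to 442 CPM in *Atm*-WT against 304 to 332 CPM in *Atm*-KO mice (−0.27, adjusted p = 0.123, or −0.17 without 13M). *Glul*, the astrocyte enzyme glutamine synthetase, was the most abundant of the list, with means of 1234 and 956 CPM (−0.37, adjusted p = 0.148). *Gjb6*, an astrocyte connexin, had a log2 fold change of −0.51 (adjusted p = 0.0991). *Dusp1*, a phosphatase that is also an immediate early gene, followed another order, being lowest in *Atm*-KO mouse 11M (17.9 CPM) and at 40.2 CPM in 12M (−0.54, adjusted p = 0.166, or −0.35 without 11M).

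In this list *Atm*-WT mouse 13M was the highest of all 8 mice in 19 of 25 genes. *Atm*-KO mouse 12M was the lowest of all in 15 and 11M in 9, and 7F was the highest *Atm*-KO mouse in 18. The median level relative to the *Atm*-WT mean was 0.31 on the log2 scale in *Atm*-WT mouse 13M and −0.15 to −0.03 in the other 3. In *Atm*-KO mice it was −0.32 in 7F, −0.49 in 1M, −0.76 in 11M and −0.80 in 12M, below every *Atm*-WT mouse. Over all genes tested this median was 0.01 in *Atm*-WT mouse 13M and −0.02 in *Atm*-KO mouse 12M. The share of all genes with these mice highest or lowest is not given here either.

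**Figure D4:**
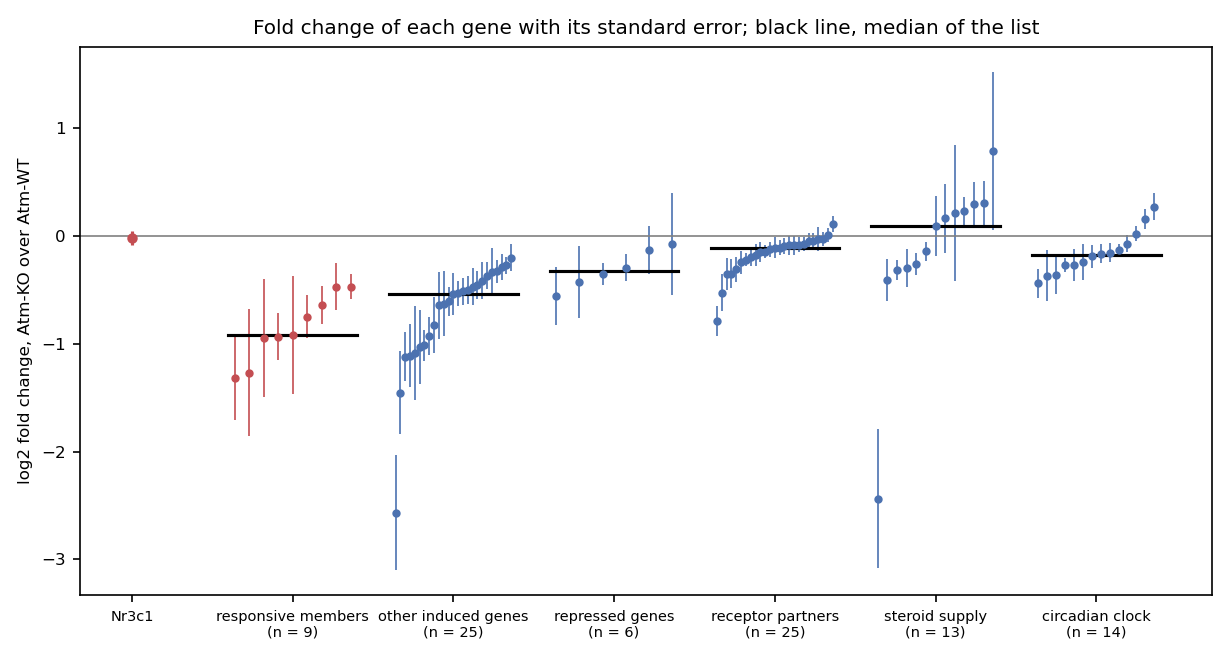
Log2 fold change of *Atm*-KO over *Atm*-WT with its standard error for *Nr3c1*, the 9 responsive genes and 5 lists of related genes, each gene a point and the black line the median of its list. The medians were −0.92 for the responsive genes, −0.54 for other induced genes, −0.32 for repressed genes, −0.11 for receptor partners, −0.17 for the circadian clock and 0.10 for steroid supply, a median that was below 0 in 4 of the 8 fits with 1 library left out.

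Receptor partners comprised chaperones, coactivators, corepressors and the mineralocorticoid receptor. Of 25, all tested, 23 had log2 fold changes below 0 (53.1% of all genes tested, and 64.9% of those at or above 5.76 CPM, whose median was −0.06). The median of the list was −0.11, and with library size alone 19 were below 0 and the median was −0.06. In edgeR 0 passed an adjusted p of 0.05, and 9 were lower at an unadjusted p under 0.05 (8.48% of all genes). DESeq2 called 2 lower, *Hspa8* and *Dnajb1* (2.44% of its genes). *Hspa8*, the constitutive HSP70 that loads the receptor onto HSP90, was at 1564, 1726, 1037 and 1469 CPM in *Atm*-WT mice 2M, 7M, 13M and 32M, and at 721, 904, 824 and 915 CPM in *Atm*-KO mice 1M, 7F, 11M and 12M. The genotypes did not overlap, and *Atm*-WT mouse 13M, highest in the responsive genes, was here the lowest *Atm*-WT mouse (log2 fold change −0.79, SE 0.141, adjusted p = 0.0931). Without that mouse *Hspa8* passed in edgeR, at −0.90. Processed copies of *Hspa8* in the genome may share its reads, and their part was not tested.

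*Dnajb1*, an HSP40 partner, had a log2 fold change of −0.53 (adjusted p = 0.139 in edgeR), or −0.29 without *Atm*-WT mouse 7M, in which it was highest. The HSP90 genes *Hsp90ab1* and *Hsp90aa1*, named after their values were seen, were at −0.31 and −0.24, and *Fkbp4*, which encodes FKBP52, the co-chaperone that opposes FKBP51, was at −0.19 (adjusted p = 0.222). *Nr3c2*, the mineralocorticoid receptor that binds the same hormone with higher affinity, was at 68.4 to 70.3 CPM in *Atm*-WT against 56.7 to 65.0 CPM in *Atm*-KO mice without overlap (−0.22, SE 0.061, adjusted p = 0.114). The values of the cyclophilin gene *Ppid* (0.11) and the Mediator subunit *Med14* (0.01) were the 2 above 0.

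Of 16 genes of steroid supply, 13 were tested, 6 of them below 0 and 7 above, with a median of 0.10. The sign of this median was not stable. It was −0.06 with either 2M or 32M of the *Atm*-WT mice left out, −0.08 with *Atm*-KO mouse 1M left out, −0.02 with 7F left out, −0.14 with limma voom, −0.11 with at least 10 counts in every library and −0.03 with 1 surrogate variable. In edgeR 0 passed an adjusted p of 0.05 and 3 were lower at an unadjusted p under 0.05 (8.48% of all genes), and DESeq2 called 1 lower, *Abcb1a* (2.44% of its genes). *Hsd11b1*, whose enzyme regenerates corticosterone inside cells, was at 26.4 to 35.3 CPM in *Atm*-WT against 24.2 to 30.2 CPM in *Atm*-KO mice (−0.26, adjusted p = 0.198 in edgeR). *Abcb1a*, the efflux pump of the blood-brain barrier, was at 46.9 to 50.8 CPM and 32.9 to 44.1 CPM (−0.31, adjusted p = 0.116), and its neighbour *Abcb1b* at 1.38 to 1.80 and 1.48 to 2.36 CPM (0.30, adjusted p = 0.435). *Crhr1*, the receptor of corticotropin-releasing hormone, and *Star*, which imports cholesterol into mitochondria, had log2 fold changes of 0.23 and 0.31. Without *Atm*-KO mouse 12M *Crhr1* was at 0.13, and without *Atm*-WT mouse 32M *Star* was at 0.16. *Pomc*, the corticotropin precursor, was at 4.57 CPM in *Atm*-WT mouse 7M and between 0.207 and 0.858 CPM in the other 7 mice, and its log2 fold change of −2.44 (adjusted p = 0.106) became −1.21 when that mouse was left out. DESeq2 gave it no adjusted p. *Hsd11b2*, *Serpina6* and *Mc2r* were too low to be tested.

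Of 12 genes that glucocorticoids repress, 6 were tested and had log2 fold changes below 0 (53.1% of all genes tested), with a median of −0.32. With limma voom, or with *Atm*-WT 2M, *Atm*-WT 13M, *Atm*-KO 1M, *Atm*-KO 7F, or both 13M and 12M left out, 5 of the 6 were below 0. The cytokine genes *Il1b*, *Il6*, *Tnf*, *Ccl2*, *Cxcl1* and *Il1rn* were too low to be tested. In edgeR 0 passed an adjusted p of 0.05 and 2 were lower at an unadjusted p under 0.05 (8.48% of all genes). DESeq2 called 1 lower (2.44% of its genes), the adhesion molecule gene *Vcam1*, which was at 25.6 to 33.2 CPM in *Atm*-WT against 20.6 to 26.3 CPM in *Atm*-KO mice (−0.35, adjusted p = 0.119 in edgeR). The growth factor gene *Bdnf* was at −0.29 and the cyclooxygenase gene *Ptgs2* at −0.56, with adjusted p-values of 0.222 and 0.278 in edgeR. Without *Atm*-WT mouse 7M *Ptgs2* was at −0.30.

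Circadian clock genes were examined because corticosterone follows the clock. Of 14, all tested, 11 had log2 fold changes below 0 (53.1% of all genes tested, and 64.9% of those at or above 5.76 CPM) and the median was −0.17. In edgeR 0 passed and 2 were lower at an unadjusted p under 0.05 (8.48% of all genes). DESeq2 called 2 lower, *Hlf* and *Nr1d1* (2.44% of its genes). *Nr1d1*, which encodes the repressor REV-ERBα, was at 136, 83.4, 108 and 91.0 CPM in *Atm*-WT mice 2M, 7M, 13M and 32M, and at 87.0, 74.6, 67.2 and 79.8 CPM in *Atm*-KO mice 1M, 7F, 11M and 12M (−0.44, SE 0.137, adjusted p = 0.131). The genotypes overlapped, 2M rather than 13M was the highest mouse, and without 2M the log2 fold change was −0.29. *Hlf*, a PAR bZIP factor, did not overlap (216 to 227 and 176 to 202 CPM, −0.27, adjusted p = 0.0942).

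The remaining clock genes lay on both sides of 0. *Bmal1* was at 36.1 to 43.5 CPM in *Atm*-WT against 38.2 to 48.5 CPM in *Atm*-KO mice (0.16, adjusted p = 0.341 in edgeR), *Clock* at 221 to 258 and 237 to 257 CPM (0.02, adjusted p = 0.874), and *Per3* at 42.5 to 57.8 and 51.5 to 75.1 CPM (0.27, adjusted p = 0.252, or 0.18 without 32M). *Cry2* was at −0.13 (adjusted p = 0.248). *Npas2* and *Ciart*, also named after their values were seen, had the lowest log2 fold changes of the list after *Nr1d1*, at −0.37 and −0.36 (adjusted p = 0.404 and 0.262). *Npas2* was at −0.21 without 2M and −0.24 without 12M, and *Ciart* at −0.20 without 13M. *Per2* and *Dbp*, named after their values were seen, were at −0.27 and −0.24. Without a single library *Per2* ranged to −0.17 (7M of *Atm*-WT) and −0.41 (32M), and *Dbp* to −0.16 (7F) and −0.40 (1M), being −0.39 without *Atm*-WT 7M. *Dbp* was as high in *Atm*-KO mouse 1M (58.5 CPM) as in *Atm*-WT mouse 13M (55.6 CPM). The median of the clock list was 0.06 in *Atm*-WT mouse 13M and −0.06 to 0.01 in 2M, 7M and 32M, and −0.27 to −0.04 in *Atm*-KO mice. The hour of collection is not in the labels, and its part in the responsive genes was not tested.

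**Figure D5:**
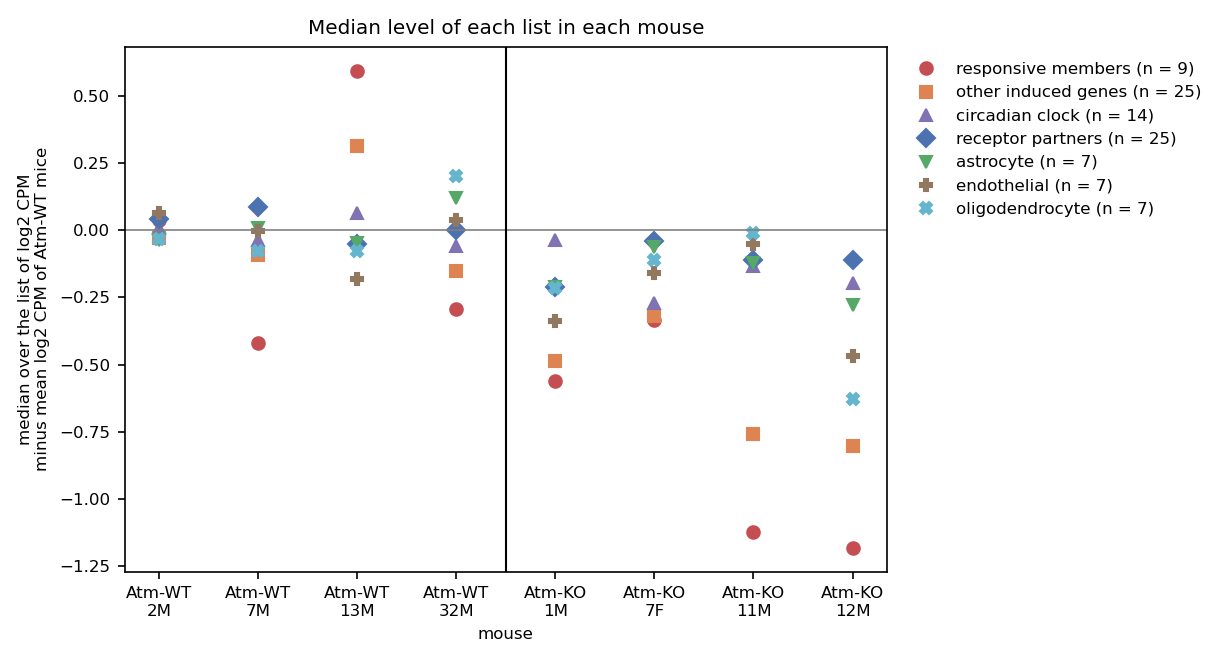
Median over each list of log2 CPM minus the mean log2 CPM of the 4 *Atm*-WT mice, per mouse. The responsive genes run from 0.59 in *Atm*-WT mouse 13M to −1.18 in *Atm*-KO mouse 12M, whereas the clock list stays between −0.27 and 0.06 and the receptor partners between −0.21 and 0.09.

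Several cell type lists had more log2 fold changes below 0 than above, where 53.1% of all genes tested, and 64.9% of those at or above 5.76 CPM, were below 0. Astrocyte markers were below 0 in 7 of 7, at 2555 to 2797 summed CPM in *Atm*-WT against 2365 to 2575 in *Atm*-KO mice, endothelial markers in 5 of 7 (230 to 256 and 187 to 241), and mural markers in 6 of 6 (197 to 241 and 152 to 200). Oligodendrocyte markers were below 0 in 7 of 7 (3276 to 4304 and 1981 to 3384), with *Atm*-KO mouse 12M at 1981, and microglial markers in 6 of 6 (73.0 to 102 and 59.4 to 77.6). Median log2 fold changes were −0.17 for astrocytes, −0.21 for endothelial cells, −0.26 for mural cells, −0.18 for oligodendrocytes and −0.36 for microglia. In edgeR none of these 33 markers passed an adjusted p of 0.05, with 15 lower at an unadjusted p under 0.05 (8.48% of all genes), and DESeq2 called 8 lower (2.44% of its genes). *Atm*-WT mouse 13M was the highest in none of these 5 lists and was the lowest *Atm*-WT mouse in endothelial (230) and microglial (73.0) markers. *Atm*-KO mouse 12M, lowest in the responsive genes, was the lowest of all 8 mice in oligodendrocyte (1981), endothelial (187), mural (152) and microglial (59.4) markers. In astrocyte markers *Atm*-KO mouse 1M was the lowest (2365).

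Red blood cell genes had log2 fold changes above 0 in 5 of 5. They summed to 15.4, 5.87, 42.9 and 6.61 CPM in *Atm*-WT mice 2M, 7M, 13M and 32M, and to 7.80, 49.5, 34.1 and 16.2 CPM in *Atm*-KO mice 1M, 7F, 11M and 12M. This order of the *Atm*-WT mice was that of *Fkbp5*, *Tsc22d3*, *Zbtb16*, *Plin4* and *Sult1a1*, and 7F was again the highest *Atm*-KO mouse, whereas 1M rather than 12M was the lowest. In edgeR 0 of the 5 passed an adjusted p of 0.05, with 0 at an unadjusted p under 0.05 (20.2% of all genes). DESeq2 called 0 (7.49% of its genes). Immediate early genes had log2 fold changes below 0 in 10 of 11 (53.1% of all genes tested). They were at 132 to 207 summed CPM in *Atm*-WT against 93.7 to 131 in *Atm*-KO mice, with 13M the lowest *Atm*-WT mouse. In edgeR 0 of the 11 passed an adjusted p of 0.05, with 4 lower at an unadjusted p under 0.05 (8.48% of all genes). DESeq2 called 1 lower (2.44% of its genes). Choroid plexus markers were below 0 in 6 of 6 (777 to 1541 and 424 to 1205) and meningeal fibroblast markers in 4 of 6 (91.9 to 119 and 79.9 to 104). Over all genes tested 53.1% were below 0. Of these 2 lists edgeR called 0 in either, with 2 and 1 lower at an unadjusted p under 0.05 (8.48% of all genes). DESeq2 called 0 and 1 lower (2.44% of its genes). Purkinje cell markers were below 0 in 5 of 6 (7738 to 9617 and 7622 to 9187), and granule cell markers were so in 2 of 6 (4925 to 5922 and 5117 to 7023), highest in *Atm*-KO mouse 12M. The lowest mean of any cell type marker in these lists was 0.535 CPM (*Aif1*). The part of cell composition, blood and handling in the responsive genes was not tested.

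Among 15738 genes with a mean of at least 1 CPM, the patterns nearest to *Fkbp5* over the 8 libraries were those of *Rnf144b*, a ubiquitin ligase gene, *Slc2a1*, the glucose transporter GLUT1, and *Efr3b*, a membrane scaffold gene. The root mean square difference of their standardized log2 CPM from *Fkbp5* was 0.127, 0.150 and 0.158. Their changes were smaller than that of *Fkbp5*, with log2 fold changes of −0.26, −0.68 and −0.13. Without 13M *Rnf144b* was at −0.15 and *Efr3b* at −0.07. Of the responsive genes, *Tsc22d3* ranked 21 in this order of likeness, *Zbtb16* 41, *Plin4* 54, *Sult1a1* 68, *Pdk4* 125, *Hif3a* 133, *Errfi1* 250 and *Sgk1* 478. Other induced genes ranged from *Map3k6* (5) and *Cdkn1a* (11) to *Per1* (1130), *Fam107a* (3059), *Dusp1* (5192) and *Cebpb* (6865), with *Fam107a* and *Cebpb* named here for their ranks. The genes nearest to *Nr3c1* were *Cdk17*, *Bcl2* and *Zfp488* (0.277, 0.279 and 0.291), with log2 fold changes of 0.01, 0.01 and −0.02. The nearest genes to *Fkbp5* were thus closer to it than those nearest to *Nr3c1* were to the receptor. All these patterns come from the same 8 libraries.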

How the data were processed

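Sequencing of mouse cerebellum was done by Novogene. Per the labels crude TriZOL RNA was sent there, whereas the study's methods describe frozen tissue with RNA extracted by the company. The submitters' processing notes name FastQC 0.11.9, STAR, featureCounts and DESeq2 with the build GRCm39, and the study gives GENCODE Release 28. The authors deposited 1 table of raw counts per gene, without normalization, for 8 libraries, each from a separate mouse per the labels. Strand and pair settings of the counting are not given in the sources used here. Between 67.3% and 73.3% of the counts from 1 to 50 were even, so whether a count is a read or a pair of reads was not settled.

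Identifiers were matched to GENCODE vM39 on GRCm39 (56017 of 56691, 98.8%), which gave symbols, positions and exon lengths, and the genome of that build gave sequences. Every library was used and grouped by genotype. Genes were kept by filterByExpr and compared with edgeR 4.0.16 in R 4.3.3 (TMM, glmQLFit, glmQLFTest, no covariate) with Benjamini-Hochberg adjustment over the 22423 genes tested. A standard error is the log2 fold change divided by the square root of F. Log2 CPM used a prior count of 2. The procedure was tested on simulated data. Alternatives were DESeq2 1.42.0, limma 3.58.1 (voom), RLE factors, library size alone, no filter, a minimum of 10 counts per library, exclusion of mitochondrial genes, 1 surrogate variable from sva 3.50.0, an adjusted p of 0.1, each library left out, and 13M and 12M left out together, the last chosen after seeing the data.

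The 10 genes, the other lists and the tests were chosen with earlier results of these data known. Named beside the 10 genes were those of the 5 lists past an adjusted p of 0.05, up to 3 of lowest p per direction and list, *Nr3c2*, *Hsd11b1*, and the 3 genes nearest in pattern to *Nr3c1* and to *Fkbp5*. Genes outside this rule are given as named after their values were seen.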

Additional observations from a re-analysis of the deposited data

Results flagged for a closer look

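In 5 of 148 groups of 4 mice examined, 1 mouse lay far from the other 3 by Dixon's criterion at the 95% level, where chance alone gives about 7.4. None of the 5 concerned the 10 genes. *Pomc* was at 4.57 CPM in *Atm*-WT mouse 7M and at 0.548 to 0.858 CPM in the other *Atm*-WT mice. In the same mouse *Cdk17* was at 190 CPM against 154 to 157, and meningeal fibroblast markers summed to 119 CPM against 91.9 to 96.2. *Per1* was at 51.0 CPM in *Atm*-WT mouse 32M against 85.5 to 91.9. *Clock* was at 257 CPM in *Atm*-KO mouse 7F against 237 to 239.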

How the results depend on the processing

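All 153 values of the 9 responsive genes over 17 alternatives were below 0, while *Nr3c1* ranged from −0.05 to 0.04. The size of the values was less stable than their sign, *Plin4* being −0.95 over all mice and −0.06 without 13M and 12M. *Atm*-WT mouse 13M mattered most: without it *Fkbp5*, *Zbtb16*, *Plin4*, *Sult1a1* and *Hif3a* changed by over 1.5 times. The number of genes called was far less stable. In place of 4 genes, DESeq2 called 1552, no filter on low counts 591, an adjusted p of 0.1 gave 426, and leaving out 1 library gave 1 to 27, with 27 without *Atm*-WT mouse 13M, 10 without 32M, 2 without 7M and 1 without *Atm*-WT 2M, *Atm*-KO 1M or 11M. Without 13M and 12M together 37 were called. Of the receptor partners, 0 passed, but 2 by DESeq2, 1 without the filter, 1 at an adjusted p of 0.1, 0 to 1 with a library left out (1 without 13M) and 1 without 13M and 12M. Of the steroid supply genes 1 passed by DESeq2 and 1 (*Pomc*) without the filter. Of the other induced genes 13 passed by DESeq2, 12 without the filter, 7 at an adjusted p of 0.1, 0 to 2 with a library left out (1 without 13M, 2 without 32M, 1 without 7F) and 1 without 13M and 12M. Of the repressed genes 1, and of the clock genes 2, passed by DESeq2, and 1 clock gene at an adjusted p of 0.1. The cause of these differences was not tested. Of 798 values of 47 other named genes, 746 kept direction and side of the threshold, 30 came to pass it and 22 changed sign, all of them near 0. With 1 surrogate variable *Crhr1* was 0.02 in place of 0.23, *Per3* 0.05 in place of 0.27, *Npas2* −0.05 in place of −0.37, *Star* 0.11 in place of 0.31, *Glul* −0.16 in place of −0.37, *Dusp1* −0.84 in place of −0.54 and *Per1* −0.70 in place of −0.47. *Abcb1a* (−0.21), *Bdnf* (−0.19), *Hsd11b1* (−0.16), *Hsp90aa1* (−0.14), *Fkbp4* (−0.12) and *Ppid* (0.19) also moved by over 1.5 times with it, as *Cry2* and *Efr3b* (both −0.08) did with library size alone. With the surrogate variable *Med14* was −0.0260, *Cdk17* −0.0292 and *Bcl2* −0.0041. With a library left out *Med14* ranged from −0.0173 to 0.0542, *Clock* from −0.0131 to 0.0606, *Cdk17* from −0.0241 to 0.0799, *Bcl2* from −0.0581 to 0.1381 and *Zfp488* from −0.0709 to 0.0823. Without 13M and 12M *Cdk17* was −0.0429 and *Bcl2* −0.0997. *Zfp488* was 0.0341 with library size alone and 0.0100 with at least 10 counts in every library. No paired analysis was possible because the labels share only 1 number between genotypes. With 4 mice per genotype and wide spread in *Zbtb16*, *Plin4* and *Hif3a*, the size of their differences is poorly known.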
